A study of Mus musculus with 6 samples.

Results

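The genes described here are 41 interferon-induced genes of the mouse, in a pair of classes. The first holds 29 antiviral effectors and sensors that answer mainly to type I interferon, and the second holds 12 GBP and IRG GTPases that answer mainly to type II interferon. They were chosen by name, with earlier results of these data known. Of the 41, 37 had a probe set naming that gene alone, out of 22180 such genes on the array, and 35 of these were bright enough to be tested among 14787 genes (26 antiviral genes and 9 GTPases). Mx1 and Gbp6 lay under the limit for dim genes and are given by their levels only. Ifi44, Dtx3l, Gbp2 and Tgtp1 were not analysed here.

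The RNA came from CD4 T cells of OT II transgenic mice, which carry a T cell receptor specific for an ovalbumin peptide. T cells from spleen and lymph nodes were cultured for 72 hours with antigen-presenting cells and the peptide, and CD4 cells were purified again before RNA was taken. The control group (3 arrays) was kept in complete RPMI-1640 medium with dialyzed serum, and the low arginine group (3 arrays) in the same kind of medium with 1% of the usual arginine (12 uM). The mice were 12 to 16 weeks old, the study names 6 mice, and the labels call the samples biological replicates without saying which mice each came from, so p-values measure the spread between these samples. Both groups came from the transgenic mice and both had been stimulated. No group of unstimulated cells and no group given interferon was used here. Values are log2 expression levels, on which a difference of 1 is a doubling, and a change is the mean of the low arginine arrays minus the mean of the control arrays. Values in single arrays are listed in the order of replicates 1, 2 and 3.

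Type I interferons bind the receptor pair Ifnar1 and Ifnar2, whose kinases Jak1 and Tyk2 activate Stat2. A complex that holds Stat2 and Irf9 then binds a DNA element called the interferon-stimulated response element (ISRE). Type II interferon, the product of Ifng, binds Ifngr1 and Ifngr2, and signals through Jak1 and Jak2 to genes that carry the gamma-activated sequence (GAS). The antiviral genes block steps of viral replication or sense viral nucleic acid, while GBP and IRG proteins attack the compartments in which intracellular microbes live. Activated CD4 T cells both make type II interferon and respond to interferons of either type.

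Some promoters of each class held a match to the ISRE, and some antiviral promoters held none. An ISRE-type match was searched as GAAA, any 2 bases and GAAA again, and a GAS-type match as TTCNNNGAA, on both strands, in the 250 bases before each gene's start in RefSeq's promoter table (build GRCm38.p6), which held 28 of the 41 genes and 24 of the 35 tested. The stretches printed next are shown because they carry the plainest matches of genes with the most different values below. Capitals mark the matches, matches of the same or the other kind may overlap, and each stretch runs 5′ to 3′ along the gene's own strand.

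Ifit1, chr19:34640765-34640833, plus strand: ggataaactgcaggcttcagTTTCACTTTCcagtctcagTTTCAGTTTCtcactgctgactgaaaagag

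Ifit3, chr19:34583353-34583436, plus strand: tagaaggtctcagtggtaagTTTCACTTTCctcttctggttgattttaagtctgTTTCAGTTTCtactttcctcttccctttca

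Isg15, chr4:156200855-156200916, minus strand: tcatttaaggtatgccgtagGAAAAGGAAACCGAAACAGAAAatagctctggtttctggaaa

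Oas3, chr5:120777705-120777754, minus strand: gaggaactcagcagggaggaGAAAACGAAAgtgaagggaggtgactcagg

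Gbp3, chr3:142559979-142560034, plus strand: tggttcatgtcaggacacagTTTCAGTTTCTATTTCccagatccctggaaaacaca

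Gbp7, chr3:142530210-142530312, plus strand: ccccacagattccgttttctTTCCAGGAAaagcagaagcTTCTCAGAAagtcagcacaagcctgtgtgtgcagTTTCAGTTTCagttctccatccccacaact

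Igtp, chr11:58199491-58199551, plus strand: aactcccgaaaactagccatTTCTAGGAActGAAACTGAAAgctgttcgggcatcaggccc

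Irgm2, chr11:58214882-58214942, plus strand: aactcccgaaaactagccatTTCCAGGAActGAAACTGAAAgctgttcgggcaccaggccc

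Irgm1, chr11:48871421-48871470, minus strand: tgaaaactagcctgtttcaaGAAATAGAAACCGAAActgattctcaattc

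ISRE-type matches lay in 14 of the 24 tested genes of this set with a promoter entry (58.3%). The share was 3.12% of all 11488 tested genes with an entry and 3.46% of all 27025 genes with an entry. All 6 GTPase genes with an entry held such a match, and 8 of 18 antiviral genes did (44.4%). GAS-type matches lay in 4 of the 6 GTPase genes (66.7%) and 3 of the 18 antiviral genes (16.7%), against 7.09% of the tested genes with an entry. The Igtp and Irgm2 stretches, both printed above, were identical at 59 of 61 bases and differed by T24C and T54C (Igtp's base first, counted from the 5′ end of the printed run). A match describes letters and not a bound site.

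In low arginine 5 of the 35 genes tested rose and none fell (limma, Benjamini-Hochberg adjusted p under 0.05), while 5.19% of all genes tested rose and 6.98% fell. The 5 were Rtp4, Ifit1, Samd9l and Ifi35 of the antiviral class (4 of 26) and Irgm2 of the GTPases (1 of 9). At an unadjusted p under 0.05 by the same test, 15 of the 35 were higher and 1, Dhx58, was lower, where 13.3% and 13.9% of all genes were. The change was above 0 for 33 of the 35 genes, all but Dhx58 and Oas3, against 51.6% of all genes. With quantile normalization or with the arrays centred on their 75th percentile, Bst2 also lay below 0 and the count was 32. With 1 array left out at a time it ranged from 29 (without control array 3) to 34 (without low arginine array 3). It was 30 without low arginine array 1 and 31 without low arginine array 2. No share of all genes above 0 is given here for these alternatives. The median change was 0.48 in the antiviral class and 0.48 in the GTPase class, beside 0.01 over all genes tested. The change was 1 or more for 6 of the 35 genes and for 1.31% of all genes. In 11 of the 35 the groups did not overlap, each with the low arginine arrays higher, where 16.0% of all genes had non-overlapping groups with low arginine higher. The other 30 genes tested had changes between -0.66 and 1.33 and adjusted p between 0.0551 and 0.93.

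**Figure D1:**
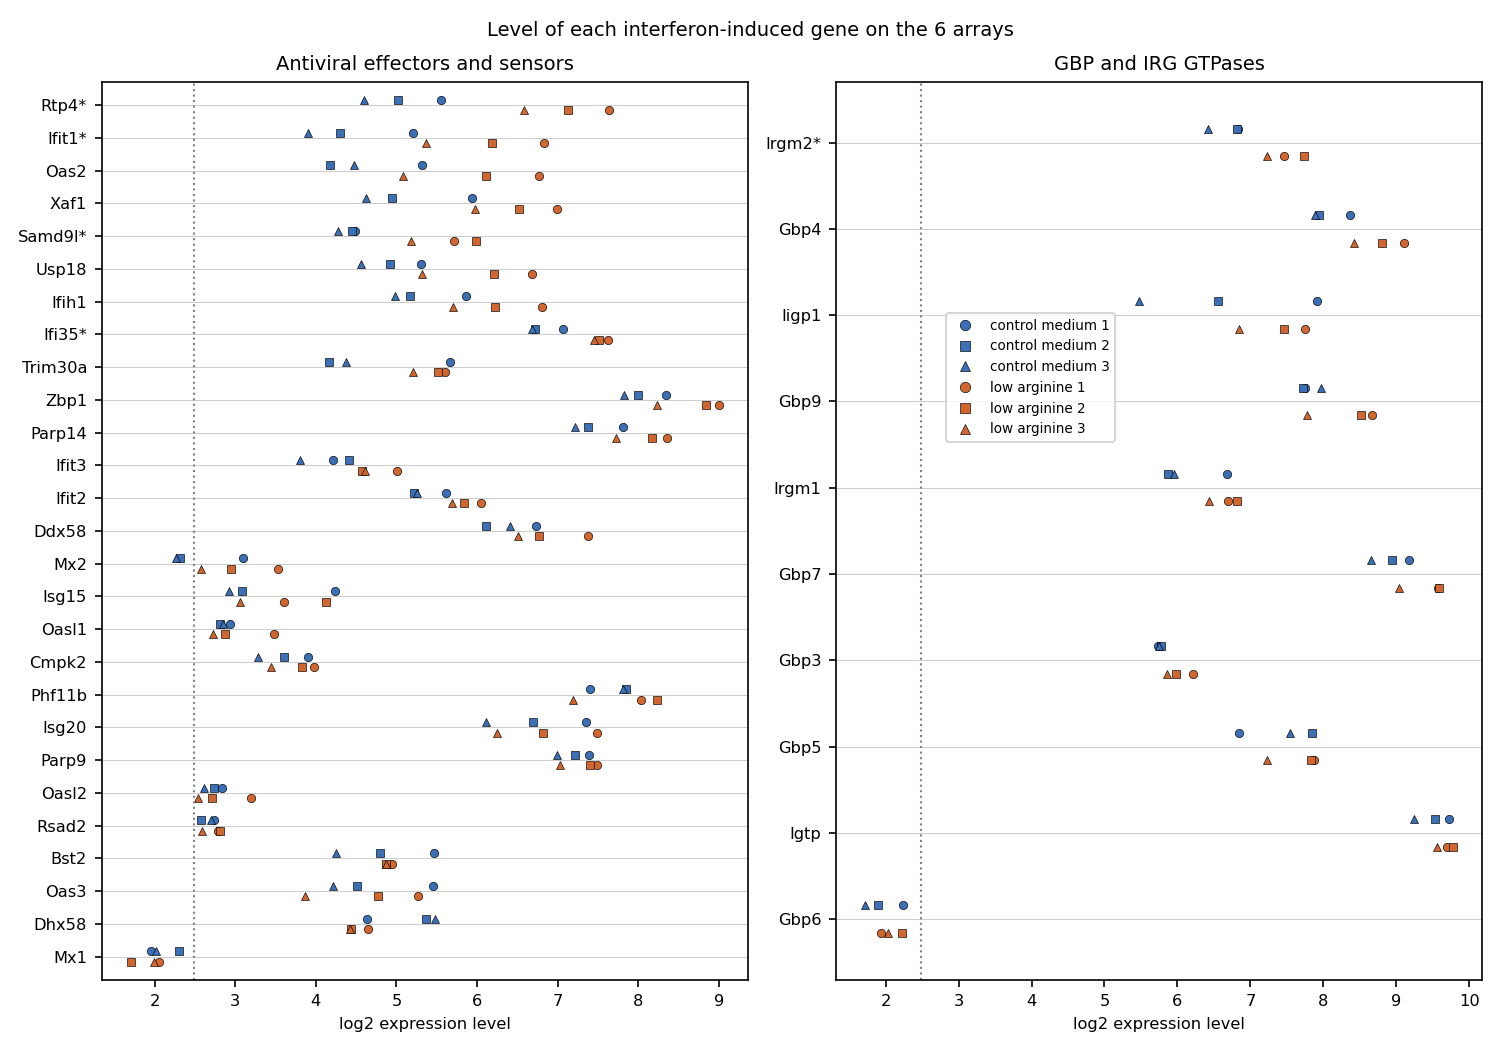
Each row is 1 gene, the horizontal axis is the log2 expression level, blue marks are the 3 control arrays, orange marks the 3 low arginine arrays, the mark's shape is the replicate number, the dotted line is the limit for dim genes and an asterisk marks genes past the threshold. Rtp4 and Ifit1 show a gap between the colours, Igtp and Bst2 show none, and Mx1 and Gbp6 lie left of the dotted line.

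**Figure D2:**
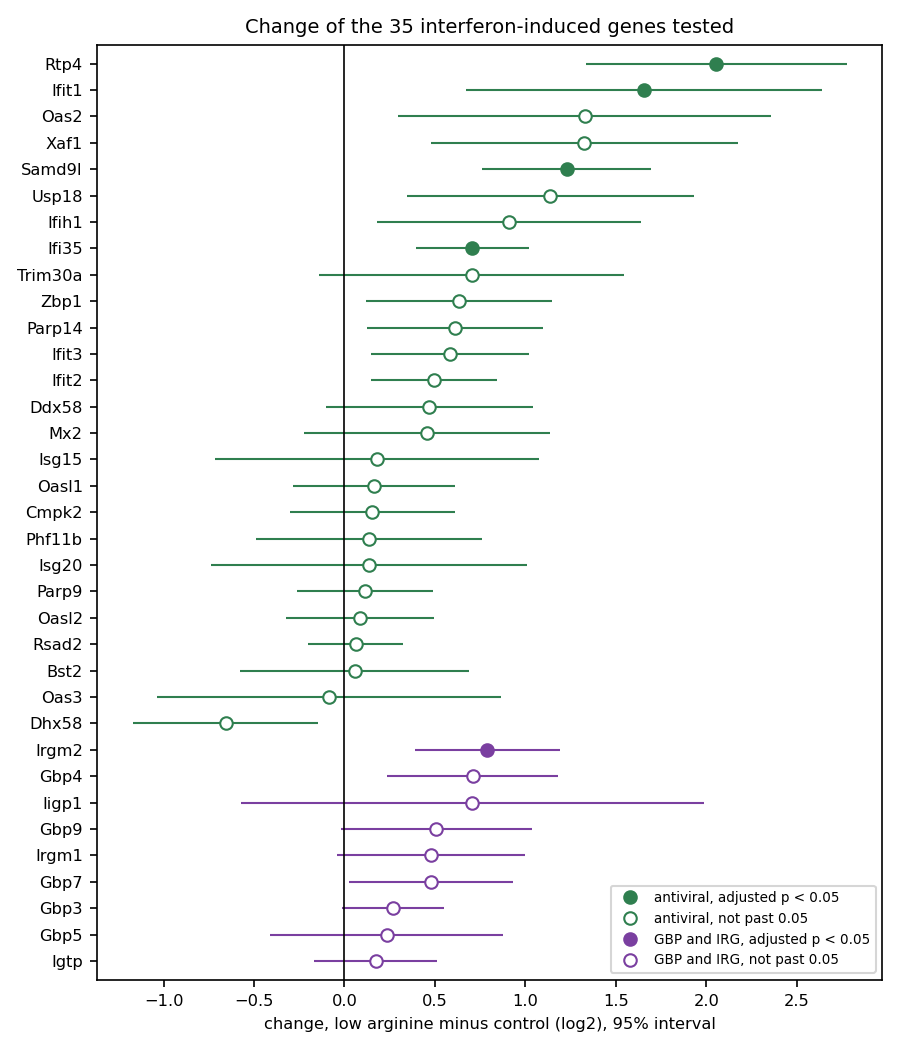
Change of each of the 35 genes tested, low arginine minus control (log2), with its 95% confidence interval from limma, filled where the adjusted p is under 0.05. Changes run from -0.66 for Dhx58 to 2.06 for Rtp4, and 33 of the 35 points lie right of 0.

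Rtp4, a Golgi and membrane chaperone that interferon induces strongly in many cells, had the largest change of the 35. Its level was 5.55, 5.02 and 4.60 in the control arrays and 7.63, 7.13 and 6.58 in the low arginine arrays. Every low arginine array lay above every control array by about 1 or more on the log2 scale. The mean rose from 5.06 ± 0.48 (SD, n = 3) to 7.11 ± 0.53, a change of 2.06 (SE 0.31, limma adjusted p = 0.00852) or 4.16-fold, which ranked 13 from the top among 14787 genes. Rtp4 alone of the 5 passed the threshold under all 15 alternatives run.

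Ifit1 binds viral RNA that lacks the host's cap methylation and blocks its translation. Its level was 5.21, 4.29 and 3.90 in control medium and 6.82, 6.18 and 5.36 in low arginine. The groups did not overlap, but the highest control array lay close under the lowest low arginine array. The mean rose from 4.47 ± 0.67 (SD, n = 3) to 6.12 ± 0.73, a change of 1.65 (SE 0.42, limma adjusted p = 0.044) or 3.15-fold. The call was lost without control array 2 (adjusted p = 0.151), without control array 3 (0.107), without low arginine array 1 (0.122), without low arginine array 2 (0.14), with quantile normalization (0.0522) and with no filter on dim genes (0.0563).

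The other Ifit genes, neighbours of Ifit1 on chromosome 19 that act on viral and cellular RNA in complexes with it, showed smaller differences in the same direction. Ifit2 read 5.61, 5.22 and 5.25 in control medium and 6.05, 5.84 and 5.69 in low arginine, a change of 0.50 (95% interval 0.15 to 0.85, limma adjusted p = 0.0739). Ifit3 read 4.21, 4.41 and 3.81 against 5.01, 4.57 and 4.61, a change of 0.59 (0.15 to 1.02, adjusted p = 0.0873). Neither gene's groups overlapped, and neither passed the threshold. The difference between Ifit1 and Ifit3 within an array was larger in low arginine by 1.07, with overlapping groups (exact two-sided permutation p = 0.2, where 3 against 3 arrays cannot go below 0.1; adjusted p = 0.514 over 9 neighbouring pairs). The Ifit1 and Ifit3 promoter stretches printed above each held a pair of ISRE-type matches.

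Samd9l, an inhibitor of translation and virus growth, read 4.48, 4.44 and 4.27 in control medium and 5.71, 5.99 and 5.18 in low arginine. The control arrays were close together and all lay below the low arginine arrays. The mean rose from 4.40 ± 0.11 (SD, n = 3) to 5.63 ± 0.41, a change of 1.23 (SE 0.20, limma adjusted p = 0.0104) or 2.34-fold. The call was lost without control array 2 (adjusted p = 0.0517) and kept under the other alternatives.

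Ifi35, which pairs with the protein Nmi in interferon-treated cells, rose least of the 5. Its level was 7.06, 6.72 and 6.69 in the control arrays and 7.62, 7.51 and 7.45 in the low arginine arrays. The arrays of each group lay within a narrow range, with no overlap. The mean rose from 6.82 ± 0.21 (SD, n = 3) to 7.53 ± 0.09, a change of 0.71 (SE 0.13, limma adjusted p = 0.0164) or 1.63-fold. Ifi35 was the only one of the 37 with a second probe set, a dimmer one that went from a mean of 3.98 to 4.32, higher by 0.33. With the mean of both probe sets the change was 0.52 (adjusted p = 0.0542), and the call was also lost without control array 2 (0.0757) and without any 1 of the low arginine arrays (0.0606, 0.0712 and 0.0587 for arrays 1, 2 and 3).

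The 2′-5′-oligoadenylate synthetases, which make the second messenger that switches on the antiviral nuclease RNase L, and their relatives gave no call among the 4 tested (limma, 1 at an unadjusted p under 0.05, Oas2). Oas2 read 5.32, 4.17 and 4.47 in control medium and 6.77, 6.10 and 5.08 in low arginine. The highest control array lay above the lowest low arginine array. Its change was 1.33 (95% interval 0.30 to 2.36, limma adjusted p = 0.097) and its fold 2.51. Oas3, the neighbouring gene on chromosome 5, read 5.45, 4.51 and 4.22 against 5.27, 4.78 and 3.87. The groups of Oas3 overlapped throughout, with a change of -0.09 (-1.04 to 0.86, adjusted p = 0.928). Within an array, Oas2 minus Oas3 was -0.13, -0.34 and 0.26 in control medium and 1.5, 1.33 and 1.20 in low arginine. This difference of the pair was larger in every low arginine array, by 1.42 on average (exact two-sided permutation p = 0.1, the smallest that 3 against 3 arrays allow; adjusted p = 0.45 over 9 pairs). The relatives Oasl1 and Oasl2 were dim, at mean levels between 2.73 and 3.03 in either medium, with changes of 0.16 and 0.09.

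Of the 4 cytosolic sensors of viral nucleic acid tested, none passed the threshold (limma, at an unadjusted p under 0.05 2 were higher, Ifih1 and Zbp1, and 1 lower, Dhx58). Ifih1 (MDA5), a sensor of long double-stranded RNA, went from 5.34 ± 0.46 (SD, n = 3) to 6.25 ± 0.55, a change of 0.91 (95% interval 0.18 to 1.64, limma adjusted p = 0.106). Ddx58 (RIG-I), a sensor of short viral RNA ends, had a change of 0.47 (adjusted p = 0.275), with overlapping groups. Dhx58 (LGP2), the relative that tunes both sensors and cannot signal alone, was the only gene of the 35 lower at an unadjusted p under 0.05. Dhx58 read 4.63, 5.36 and 5.48 in control medium and 4.65, 4.44 and 4.42 in low arginine. Control array 1 lay among the low arginine arrays, and the other control arrays lay above them all. The change was -0.66 (-1.17 to -0.15, adjusted p = 0.0979), and without control array 1 it was -0.92 and past the threshold (adjusted p = 0.00224). Zbp1, a sensor of left-handed nucleic acid that starts necroptosis and the brightest antiviral gene, read 8.34, 8.0 and 7.82 against 9.0, 8.83 and 8.23. The lowest low arginine array of Zbp1 lay below the highest control array, and the change was 0.63 (0.12 to 1.15, adjusted p = 0.11).

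Among the regulators, Usp18, which removes ISG15 from proteins and blocks the type I receptor, read 5.31, 4.92 and 4.56 in control medium and 6.68, 6.21 and 5.31 in low arginine. The groups of Usp18 met at 5.31 without overlapping. Its change was 1.14 (95% interval 0.34 to 1.93, limma adjusted p = 0.0718) or 2.20-fold. Isg15, the ubiquitin-like modifier that Usp18 removes, read 4.24, 3.09 and 2.92 against 3.60, 4.13 and 3.06, with overlapping groups and a change of 0.18 (-0.71 to 1.08, adjusted p = 0.825). Without low arginine array 3 Usp18 passed the threshold (change 1.51, adjusted p = 0.0311). The Isg15 stretch printed above held 3 overlapping ISRE-type matches.

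Xaf1, which favours cell death by opposing the inhibitor XIAP, came nearest the threshold of the genes that missed it. It read 5.93, 4.94 and 4.62 in control medium and 6.99, 6.52 and 5.98 in low arginine. The groups did not overlap, though the highest control array and the lowest low arginine array nearly met. The change was 1.33 (95% interval 0.48 to 2.18, limma adjusted p = 0.0551) or 2.51-fold, and with more dim genes left out (a share of 0.5) the adjusted p was 0.0482. Parp14, a mono-ADP-ribosyltransferase and the second brightest antiviral gene, read 7.81, 7.38 and 7.21 against 8.35, 8.16 and 7.72. The groups of Parp14 overlapped at 1 array of each, with a change of 0.61 (0.13 to 1.10, adjusted p = 0.102). Its relative Parp9 had a change of 0.11 (adjusted p = 0.719).

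Several textbook antiviral genes were dim or showed little difference. Rsad2 (viperin), which makes a chain-terminating nucleotide, lay between 2.58 and 2.81 on all 6 arrays, with a change of 0.06 (95% interval -0.20 to 0.32). Mx1, an interferon-induced GTPase against influenza virus, lay between 1.71 and 2.30, under the limit of 2.48 on every array, and was not tested. Mx2 went from 2.56 ± 0.46 (SD, n = 3) to 3.02 ± 0.48 with overlapping groups (limma adjusted p = 0.38). Cmpk2, the mitochondrial nucleotide kinase beside Rsad2, had a change of 0.15. Bst2 (tetherin), which holds budding virus at the cell surface, had a change of 0.06 (-0.57 to 0.69). Isg20, an exonuclease for RNA, had a change of 0.13 (-0.74 to 1.01) and Phf11b one of 0.14. Trim30a, a brake on inflammatory signalling, read 5.67, 4.17 and 4.37 against 5.60, 5.52 and 5.20, where only control array 1 overlapped the low arginine arrays (change 0.70, adjusted p = 0.266; without control array 1, 1.17 and adjusted p = 0.00208).

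Levels of the GTPases spread widely, with Gbp6 under the limit for dim genes. Igtp (Irgm3) ranked 197 and Gbp7 ranked 312 by mean level of 22180 genes, a comparison of different probe sets that gives no order of transcript amounts. All 9 GTPases tested had a change above 0, between 0.17 and 0.79, and 1 of them passed the threshold. All 9 also stayed above 0 under quantile normalization and both centrings. Gbp5 lay below 0 with weights per array (-0.11) and without control array 1 (-0.05).

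Irgm2, a regulatory IRG protein that holds effector IRG proteins inactive on the cell's own membranes, was the GTPase that rose. It read 6.83, 6.81 and 6.42 in control medium and 7.46, 7.74 and 7.22 in low arginine. The lowest low arginine array lay clearly above the highest control array. The mean rose from 6.69 ± 0.23 (SD, n = 3) to 7.48 ± 0.26, a change of 0.79 (SE 0.17, limma adjusted p = 0.0267) or 1.73-fold. The call was lost without control array 2 (adjusted p = 0.0759), control array 3 (0.0602), low arginine array 1 (0.0779) or low arginine array 2 (0.1).

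Igtp, another regulatory IRG protein and the neighbour of Irgm2 on chromosome 11, read 9.73, 9.53 and 9.24 in control medium and 9.69, 9.78 and 9.55 in low arginine. The groups of Igtp overlapped, with a change of 0.17 (95% interval -0.17 to 0.51, limma adjusted p = 0.523). Irgm2 minus Igtp within an array was -2.90, -2.72 and -2.82 in control medium and -2.23, -2.04 and -2.33 in low arginine. The pair differed less in every low arginine array, by 0.62 on average (exact two-sided permutation p = 0.1, the smallest possible; adjusted p = 0.45 over 9 pairs). Their printed promoter stretches were those that differed at 2 of 61 bases. Irgm1, the regulatory protein tied to autophagy, had a change of 0.48 (-0.04 to 1.00, adjusted p = 0.218). Iigp1 (Irga6), an effector IRG protein that loads onto parasite vacuoles, read 7.91, 6.55 and 5.47 against 7.74, 7.47 and 6.84. Its control arrays were the widest apart of the 35 genes, and its change of 0.71 had an interval from -0.57 to 1.99 (adjusted p = 0.483).

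The guanylate-binding proteins, large GTPases that coat and break open vacuoles and bacteria, gave 0 calls among the 5 tested (limma, 2 at an unadjusted p under 0.05, Gbp4 and Gbp7), with a median change of 0.48. Gbp4 read 8.37, 7.94 and 7.89 in control medium and 9.10, 8.81 and 8.42 in low arginine. The groups of Gbp4 did not overlap, by a narrow gap, and the change was 0.71 (95% interval 0.24 to 1.18, adjusted p = 0.0623). Gbp7 read 9.18, 8.94 and 8.65 against 9.57, 9.59 and 9.04, with 1 low arginine array below the highest control array and a change of 0.48 (0.02 to 0.93, adjusted p = 0.162). Gbp9 read 7.75, 7.72 and 7.97 against 8.66, 8.52 and 7.78, where the third low arginine array fell among the controls (change 0.51, adjusted p = 0.199; without that array 0.78 and adjusted p = 0.0402). Gbp3 read 5.73, 5.78 and 5.74 against 6.22, 5.99 and 5.86, a small difference without overlap (change 0.27, adjusted p = 0.204). Gbp5, which also promotes inflammasome assembly, had a change of 0.23 (-0.41 to 0.88), and of -0.05 without control array 1. Gbp6 lay between 1.72 and 2.24 on the 6 arrays and was not tested. Genes of the GBP, IRG, Ifit and Oas families have close copies, and whether their probe sets also read a copy was not tested.

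**Figure D3:**
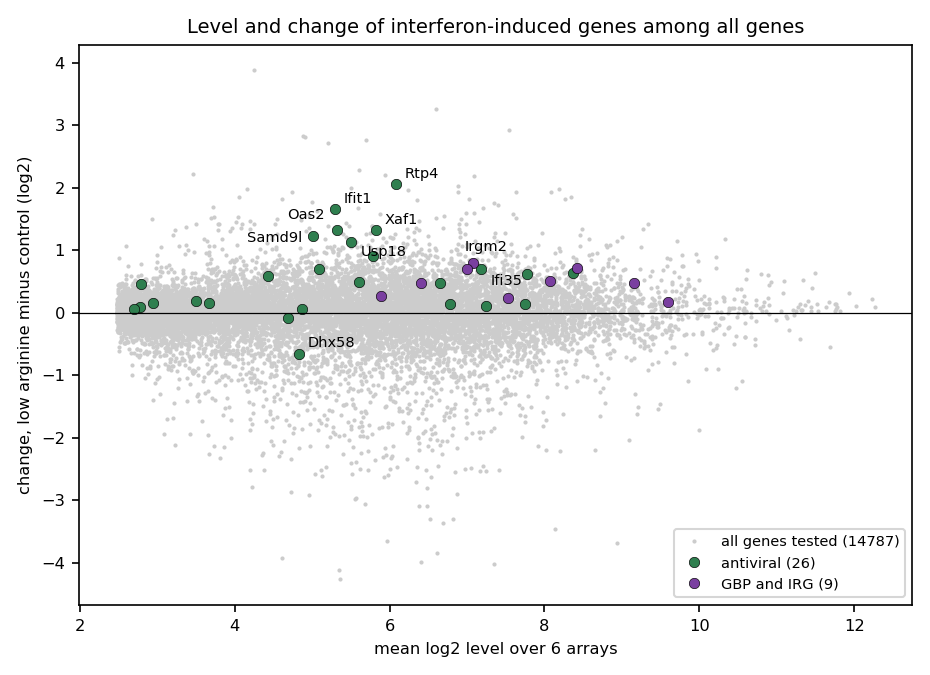
Mean log2 level over the 6 arrays (horizontal) against the change, low arginine minus control, log2 (vertical), for all 14787 genes tested in grey, the 26 antiviral genes in green and the 9 GTPases in purple. The set spans levels from that of Rsad2 to that of Igtp, and Rtp4, at a change of 2.06, stands highest of it.

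Arrays of the same medium differed from each other in this set more than in most genes. The median within-group SD was 0.34 for the 35 genes, 0.41 for the antiviral class and 0.31 for the GTPases, beside 0.17 for all genes tested, and 32 of the 35 were above that of all genes. Control array 1 was the highest control for 29 of the 35 genes (82.9%, against 40.1% of all genes) and low arginine array 1 was the highest of its group for 27 (77.1%, against 31.1%). Control array 3 was the lowest control for 23 (65.7%, against 37.8%) and low arginine array 3 the lowest of its group for 33 (94.3%, against 35.2%). Taking each gene's deviation from its mean over the 6 arrays, the antiviral median was 0.03, -0.39 and -0.56 in the control arrays and 0.58, 0.28 and -0.14 in the low arginine arrays. Control array 1 thus lay above low arginine array 3 in this median. The GTPase median was -0.05, -0.27 and -0.46 against 0.38, 0.41 and -0.04, without overlap. Transcripts of the Y chromosome followed the same replicate numbers. Uty read 5.44, 4.14 and 1.97 in control medium and 5.53, 3.93 and 1.72 in low arginine, and Kdm5d and Eif2s3y were ordered likewise. The part of the animals' sex, and of other differences between replicates, in the spread of these genes was not tested.

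**Figure D4:**
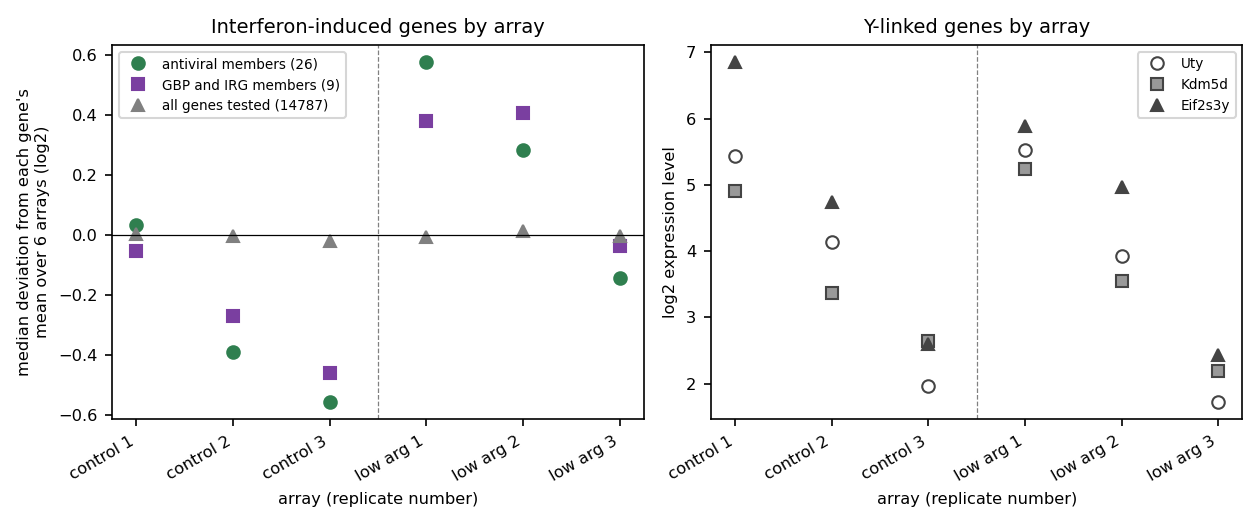
Left, the median deviation of each class from its genes' means over the 6 arrays (log2 scale) by array, with all genes tested in grey. Right, the log2 level of 3 Y-linked genes on the same arrays, where replicate 1 is high and replicate 3 low in both media, as the antiviral median is within each medium.

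Control array 1 also stood apart from the other arrays over all genes, at 35.2 on the second principal component (22.5% of the variance) where the other control arrays were at -8.53 and -22.3. Without it, 16 of the 35 genes were higher and 1 lower (limma adjusted p under 0.05), beside 11.0% and 11.5% of all genes. The 11 added on the higher side were Xaf1, Oas2, Iigp1, Usp18, Trim30a, Ifih1, Gbp4, Parp14, Zbp1, Irgm1 and Ifit2, and the lower one was Dhx58. Without control array 2 only Rtp4 passed, beside 1.1% of all genes higher, and without low arginine array 1 or 2 there were 2 genes, beside 2.25% and 1.09%. Without control array 3 there were 3, beside 3.92%, and without low arginine array 3 there were 6, beside 1.35%.

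Interferon genes, listed with 4 interleukin genes whose products promote type II interferon production (Il12a, Il12b, Il18 and Il27), gave no difference that passed the test. Of the 15 genes of this list that were measured, 8 were under the limit for dim genes, and of the 7 tested, among them Il12b and Il27, none passed the threshold (limma, 0 at an unadjusted p under 0.05, median change -0.03). Ifng read 3.79, 3.03 and 2.88 in control medium and 3.03, 3.58 and 2.99 in low arginine, overlapping throughout, with a change of -0.03 (95% interval -0.65 to 0.58, adjusted p = 0.957). Ifnb1, the first type I interferon made by many cells, lay at 2.15 ± 0.18 (SD, n = 3) and 2.09 ± 0.06, under the limit on every array. Protein was not measured.

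Of 11 receptor, kinase and STAT genes tested, Irf9 alone rose and none fell (median change 0.14), beside 5.19% and 6.98% of all genes. Irf9, the DNA-binding part of the complex that reads the ISRE, read 7.06, 7.03 and 6.91 in control medium and 7.59 in each of the 3 low arginine arrays. The change was 0.59 (limma adjusted p = 0.012), and the call was lost without control array 2 (adjusted p = 0.0527) and without low arginine array 2 (0.0598) or 3 (0.055). The receptor chains Ifnar1, Ifnar2 and Ifngr1 had changes of -0.13, -0.08 and -0.19, and Ifngr2 had one of 0.66 (95% interval 0.04 to 1.27, adjusted p = 0.156). Among the kinases Jak1 had a change of 0.14, Jak2 of 0.30 and Tyk2 of -0.02, and Stat2 had one of 0.17, none past the threshold.

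The 15 factors and adaptors that switch interferon genes on gave 2 higher and 2 lower (median change 0.12), beside the same shares of all genes. Irf7, the factor that amplifies type I interferon and is itself interferon-induced, read 5.87, 5.44 and 5.34 in control medium and 7.16, 7.09 and 6.43 in low arginine. The groups were well apart, with a rise of 1.35 (95% interval 0.82 to 1.87, limma adjusted p = 0.0114), lost without control array 2 (0.0582) and low arginine array 2 (0.0587). Irf3, the factor that starts interferon transcription, rose by 0.57 (adjusted p = 0.0354; 0.0519 with 75th percentile centring, 0.127 without control array 2, 0.0563 without control array 3, 0.135 without low arginine array 2 and 0.136 without low arginine array 3). Unc93b1, the chaperone that carries nucleic acid receptors of the Toll-like family to endosomes, fell from 5.99 ± 0.08 (SD, n = 3) to 4.23 ± 0.15, a change of -1.76 (adjusted p = 0.000575). Ticam1, the adaptor of Tlr3, fell by 0.72 (adjusted p = 0.0117), and the call was lost without control array 2 (0.058) and low arginine array 2 (0.0519). Irf1, the factor that drives many GBP genes, had a change of 0.20 (adjusted p = 0.42).

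**Figure D5:**
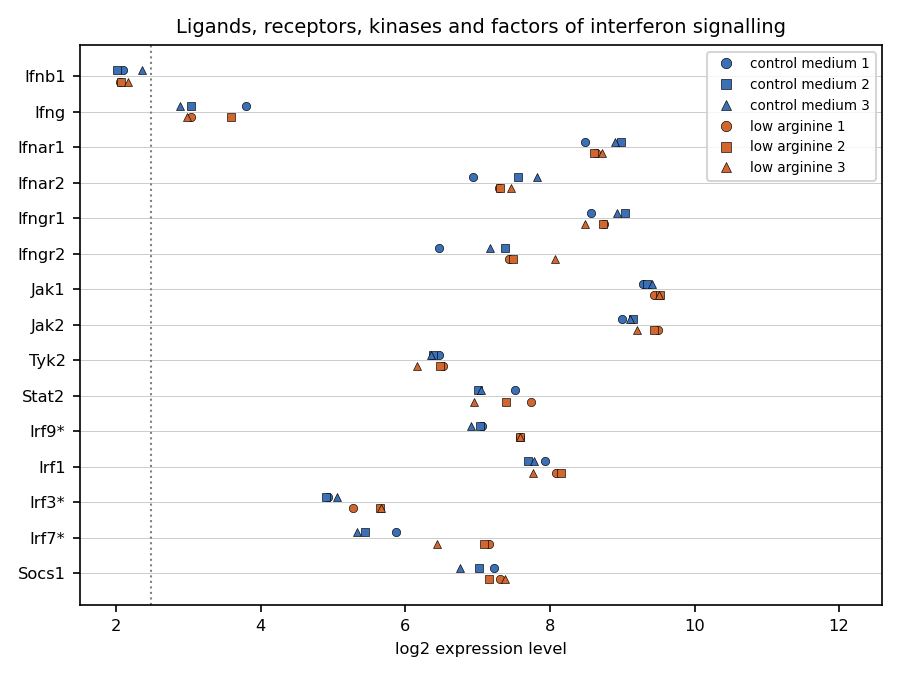
Log2 expression levels (horizontal axis) of 15 genes of interferon signalling, 1 gene a row, with blue marks for control arrays, orange for low arginine arrays, shapes for replicate numbers, a dotted line at the limit for dim genes and an asterisk at genes that rose. Irf9, Irf3 and Irf7 show separate colours, and Ifng and Ifnar1 do not.

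Of 13 brakes on the pathway 2 rose and none fell (median change 0.27, and 0.07 without control array 1), beside 5.19% and 6.98% of all genes. At an unadjusted p under 0.05 (limma) 3 were higher and 4 lower, beside 13.3% and 13.9% of all genes. Ptpn1, Ptpn2 and Ptpn6 were among the lower ones, with changes of -0.29, -0.38 and -0.27. The 2 that rose were Irf2bp2, a partner of the repressor Irf2 (0.75, limma adjusted p = 0.0317), and Adar, which edits double-stranded RNA so that sensors ignore it (0.66, adjusted p = 0.0262). Both calls were lost without control array 2 (0.0757 and 0.103) and without low arginine array 1 (0.0721 and 0.087), 2 (0.115 and 0.0993) or 3 (0.118 and 0.0801), and that of Adar also without control array 3 (0.0613). Socs1, the main feedback inhibitor of the Janus kinases, had a change of 0.29 (95% interval -0.05 to 0.63, adjusted p = 0.254).

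In a longer list of other antiviral interferon-induced genes, 13 of 51 genes tested were higher and 2 lower (limma adjusted p under 0.05, median change 0.32), beside 5.19% and 6.98% of all genes. The largest rise was that of Ddx60, a helicase that helps RIG-I, from 3.17 ± 0.47 (SD, n = 3) to 5.15 ± 0.55, a change of 1.98 (adjusted p = 0.00968; 0.0526 without low arginine array 2). Slfn5 rose by 1.54 (adjusted p = 0.0309), Ifit1bl1, a relative of Ifit1, by 1.38 (0.01), Oas1b by 1.20 (0.0126) and Rnf213, a ubiquitin ligase that coats bacteria, by 1.07 (0.0138). Epsti1 fell by 1.24 (adjusted p = 0.0284). The higher count was 3 without control array 2 and 3 without low arginine array 2, beside 1.1% and 1.09% of all genes. It was 6 without low arginine array 1 and 7 without low arginine array 3, beside 2.25% and 1.35%, and 20 without control array 1, beside 11.0%. The calls of Slfn5, Oas1b, Rnf213 and Epsti1 were each lost without control array 2 (adjusted p = 0.109, 0.0572, 0.0675 and 0.083) and without low arginine array 2 (0.116, 0.0528, 0.0652 and 0.113), and that of Ifit1bl1 without control array 2 (0.0516). Slfn5 was also lost without control array 3 (0.0788) and low arginine array 1 (0.0966), and Epsti1 without control array 3 (0.0568) and low arginine array 3 (0.0946).

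Of 34 other genes induced mainly by type II interferon, 4 were higher and 3 lower, beside 5.19% and 6.98% of all genes (median change 0.04, and -0.02 with the arrays centred on their 75th percentile). Cd274 (PD-L1), the ligand of an inhibitory T cell receptor, rose from 6.74 ± 0.17 (SD, n = 3) to 7.95 ± 0.23, a change of 1.21 (limma adjusted p = 0.00474) that passed the threshold under all alternatives. Gbp8 and Gbp10, further guanylate-binding proteins, rose by 0.77 and 0.75 (adjusted p = 0.0452 and 0.0234), and Gbp8 missed the threshold with either centring (0.0537 and 0.0599) and with no dim filter (0.0537). Tbx21 (T-bet), the factor that directs type II interferon production in T helper cells, fell by 1.20 (adjusted p = 0.0466; 0.0584 with no dim filter). Ccl5, a chemokine of effector T cells, fell by 0.77 (0.0299) and Psmb9, an immunoproteasome subunit, by 0.57 (0.0273). Apart from Cd274, each of these was lost without control array 2 (adjusted p = 0.133 for Gbp8, 0.0847 for Gbp10, 0.122 for Tbx21, 0.117 for Ccl5 and 0.107 for Psmb9) and each depended on further arrays. Without control array 3 the adjusted p was 0.0763 for Gbp8, 0.0612 for Gbp10, 0.0596 for Tbx21 and 0.0745 for Ccl5. Without control array 1 it was 0.0526 for Gbp8 and 0.0536 for Tbx21. Without low arginine array 1 it was 0.123, 0.0796, 0.126, 0.0684 and 0.056 for Gbp8, Gbp10, Tbx21, Ccl5 and Psmb9. Without low arginine array 2 it was 0.154, 0.1, 0.0652 and 0.0933 for Gbp8, Gbp10, Ccl5 and Psmb9, and without low arginine array 3 it was 0.139, 0.091 and 0.108 for Tbx21, Ccl5 and Psmb9.

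The tested T cell markers were bright, with 0 of 7 past the threshold (limma, 0 at an unadjusted p under 0.05), and Cd3e was at 10.77 ± 0.04 (SD, n = 3) and 10.87 ± 0.08. Markers of B cells and myeloid cells stayed near the limit for dim genes, with 0 of 6 and 0 of 10 tested past the threshold. Summed linear levels, here and for the next lists, cover all measured genes of a list, also those under that limit. For B cells (10 measured) they were 61.0 to 66.5 in control and 62.1 to 65.5 in low arginine. For myeloid cells (18 measured) they were 192.5 to 230.3 and 200.4 to 211.1. Of 6 tested markers of plasmacytoid dendritic cells, a type that makes much type I interferon, Cox6a2 rose by 1.94 (adjusted p = 0.00383), and the summed level of the list was 100.7 to 130.8 in control and 147.4 to 179.7 in low arginine. The defining markers Siglech, Klk1 and Spib of that cell type were under the limit for dim genes, and Bst2 stands both there and in the antiviral class. Of 8 dendritic cell markers tested none passed, at summed levels of 659.9 to 1430 and 1558 to 1821 over the 11 measured. Most of that sum came from Ccr7 and Cd209a, so it follows these genes and does not measure the amount of dendritic cells. The change was above 0 for 6 of the 8, beside 51.6% of all genes. At an unadjusted p under 0.05 (limma) 1 was higher and 2 lower, beside 13.3% and 13.9% of all genes. Without control array 1 or 3, 1 passed as lower, beside 11.5% and 5.33% of all genes. Of 8 tested markers of CD8 T and NK cells Klrk1, Gzma and Nkg7 fell and none rose, beside 6.98% and 5.19% of all genes. The summed levels were 344.6 to 400.0 in control and 248.5 to 298.0 in low arginine over the 10 measured. At an unadjusted p under 0.05 (limma) 5 of the 8 were lower and 1 higher, beside 13.9% and 13.3% of all genes. Of 5 plasma cell markers Xbp1 and Prdm1 fell, genes that activated T cells also express, beside 6.98% of all genes. With 1 array left out, 1 to 6 CD8 T and NK cell markers passed as lower. There were 6 without control array 1, 2 without control array 3 and 1 without any other. For plasma cells 2 passed as lower without control array 1 or 3 and 1 without any other. Of all genes, 11.5% passed as lower without control array 1 and 5.33% without control array 3. Without any other array the share was 2.29% to 4.48%. Without control array 1, 1 of the CD8 T and NK cell markers also passed as higher, beside 11.0% of all genes. Red cell and platelet markers gave 0 of 3. The part of these cells in the values of the interferon-induced genes was not tested, and in RNA from many cells together, fewer cells of a type and less RNA per cell cannot be told apart.

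Across the genes with a promoter entry, the median change was 0.25 for the 14 with an ISRE-type match (2 past the threshold) and 0.48 for the 10 without one (2 past the threshold). For GAS-type matches it was 0.23 for the 7 with a match and 0.47 for the 17 without. These are descriptions of few genes that share arrays, and no test was made.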

How the data were processed

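RNA of CD4 T cells was measured on 6 one-colour arrays, 3 per medium. The authors deposited log2 values per probe set; per the submitters' processing notes they used the oligo package. For its version, and for how background, normalization, summarization and logarithm were set, the answer is "not given in the sources used here". Base 2 was taken from the range of the values (0.956 to 12.4). Array medians lay between 2.97 and 3.03. No detection calls or scanner signals were used here, and the number of arrays limits the precision.

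Of 41345 probe sets, 23521 had exactly 1 gene symbol in the platform's table, 1814 several and 16010 none. Of the first class the brightest by mean over all arrays stood for each gene. Names of members and lists were matched by symbol or, through a RefSeq table of GRCm38.p6, by older symbols (268 of 307 listed genes). Of 22180 genes, the dimmest 7393 (a share of 0.333, limit 2.48) were left out.

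The 14787 others were fitted by group in R 4.3.3 with lmFit and eBayes of limma 3.58.1 (degrees of freedom 4 residual and 3.69 prior, tests two-sided), with Benjamini-Hochberg adjustment over all of them and a threshold of 0.05. Only the rows of the interferon genes and the marker lists are printed. Neighbouring genes were compared by exact permutation over arrays. The fit was checked on simulated data. The members and lists were chosen with earlier results of these data known. Values in every array are given for members past the threshold, the 4 largest changes in each direction of each class and the 2 brightest of each class; further ones (Usp18, Ifit2, Ifit3, Isg15, Trim30a, Gbp3 and Uty) were added after their values were seen. Of each pathway list, up to 6 of the genes past the threshold and a few genes named whatever their result are given. Alternatives were other scalings, dim filters, probe set means, a trended and robust prior, weights per array, a block for the replicate number and the fit without each array in turn. Figures were drawn with matplotlib 3.10.9.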

Additional observations from a re-analysis of the deposited data

How the results depend on the processing

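All 35 interferon-induced genes kept the sign of any call under every alternative run; the signs that turned were those of genes past no threshold. The median change ranged from 0.31 to 0.65 in the antiviral class and from 0.34 to 0.66 in the GTPase class. Array weights, which gave control array 1 the lowest weight (0.239), took the higher members from 5 to 20, the lower ones from 0 to 1 (Dhx58) and all genes past the threshold from 1799 to 5514. Leaving out 1 array at a time gave 1 to 16 higher members, 0 to 1 lower members and 500 to 3325 genes in all. Of the 5 higher members, 4 or 5 passed under each scaling, filter, probe set and prior alternative. With the arrays centred on their 75th percentile all genes split into 535 higher and 1190 lower, against 767 and 1032 as deposited. With a share of 0.5 left out as dim, Mx2, Oasl1, Oasl2 and Rsad2 were not tested. Same-numbered arrays' deviations from their group means correlated at 0.121, 0.0588 and 0.141 over 14787 genes, and each array correlated best with its own number. Levels of the Y-linked genes Uty, Kdm5d and Eif2s3y also followed the replicate number in both media. Both are hints from the data and not from the design. The labels do not say whether same-numbered samples share mice, so the numbers were not taken as pairs. With the replicate number as a block, 13 members passed as higher (4.27% of all genes did), none as lower, the 8 added being Gbp4, Ifih1, Ifit2, Oas2, Parp14, Usp18, Xaf1 and Zbp1, and 1568 genes in all passed. The block also ended the call of Gbp8 (adjusted p = 0.0675), and 2 of the other type II genes passed as higher in place of 4. Why these counts move was not tested. The values carry no detection calls, so changes of genes near the limit of 2.48 are uncertain.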
